A study of Mus musculus with 6 samples.

Results

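Of 32 genes of glucose breakdown and of the response to low oxygen, 30 had an array probe set naming no other gene, 28 could be tested, and 0 were called different between the superior and inferior parts of the mouse outflow tract. The outflow tract is the tube through which blood leaves the embryonic heart. The set was chosen by gene name, as 18 glycolysis genes and 14 genes of the hypoxia-inducible factor (HIF) and its targets, out of 18194 genes named on the array. The 30 genes had 70 probe sets of 45101, a probe set being a group of short oligonucleotides that together read a transcript. Gpi1, a glucose phosphate isomerase gene, and Eno1, an enolase gene, had no probe set of their own. No signal was analysed for them, and only their promoter sequences were searched.

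RNA was read on 6 Affymetrix whole-genome expression arrays: each region had 3 pools, and the labels number them 1, 6 and 7. All came from hearts of CD1 mouse embryos at embryonic day 10.5, so the groups share strain and stage, and the labels name no genotype, treatment or difference other than region. The sample labels give 6 littermate embryos a pool and the series text gives 7 dissected pieces, and the labels do not state that pools were separate litters. The p-values therefore measure the spread between these pools.

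Glycolysis turns glucose into pyruvate. Glucose enters through transporters of the Slc2a family, is committed by hexokinase and phosphofructokinase, and is split and oxidised by the later enzymes, while lactate dehydrogenase converts pyruvate to lactate. HIF is a transcription factor whose alpha subunit is marked for destruction by prolyl hydroxylases when oxygen is present. When oxygen is short it turns on many glycolytic genes and genes of angiogenesis, matrix and mitochondrial control, and the midgestation heart is a tissue in which such genes are known to be active.

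HIF binds a short core, ACGTG or GCGTG. Both were searched on both strands in the 250 bases before each annotated start (RefSeq, assembly GRCm38.p6), where 30 of the 32 members had an entry. At least 1 match lay in a window of 28 of these 30 genes (93.3%), against 62.9% of 9087 genes that had a tested probe set and 41.5% of all 27025 genes listed. Median GC content was 62.8% in members' windows and 60.4% in those of tested genes. A match is a run of letters and not a shown binding site, and the members include well-known HIF targets. The windows shown are 60 bases long and belong to the 5 genes whose brightest probe set had all superior values above all inferior values, and to Slc2a1 and Bnip3, with matches in capitals. A CACGTG palindrome counts once on each strand.

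Ldha, chr7:46845729-46845788, plus strand: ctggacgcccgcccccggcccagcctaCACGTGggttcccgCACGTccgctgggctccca
Pgk1, chrX:106186923-106186982, plus strand: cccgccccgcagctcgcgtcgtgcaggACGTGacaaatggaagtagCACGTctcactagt
Pgam1, chr19:41911730-41911789, plus strand: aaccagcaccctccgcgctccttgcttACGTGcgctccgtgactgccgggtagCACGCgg
Pdk1, chr2:71873119-71873178, plus strand: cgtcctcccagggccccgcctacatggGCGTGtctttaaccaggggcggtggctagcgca
Slc2a1, chr4:119108682-119108741, plus strand: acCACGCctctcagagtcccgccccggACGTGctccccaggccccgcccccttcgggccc
Bnip3, chr7:138909581-138909640, minus strand: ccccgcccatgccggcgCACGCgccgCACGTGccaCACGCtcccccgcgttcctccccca
Tpi1, chr6:124814159-124814218, minus strand, the 60 bases next to the start: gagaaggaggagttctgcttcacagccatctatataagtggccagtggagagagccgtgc

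The Ldha window before its upstream start held 5 matches in 250 bases and that of Bnip3 also 5, whereas Tpi1 and Gpi1 had 0 matches in the letters searched.

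Signals are MAS5 values on a linear scale, and a signal above 8.0, the highest of 27 probe sets for untargeted bacterial transcripts, is called above background. Each gene is described by its brightest tested probe set, and differences are superior minus inferior on the log2(signal + 3.2) scale. Pools were compared in pairs with limma, and adjusted p-values are over all 22518 tested probe sets. In that fit 36 probe sets (0.16%) were called at an adjusted p of 0.05, of which 21 (0.0933% of all) were higher and 15 (0.0666%) lower in superior. The cardiac troponin Tnnt2, a heart muscle marker, averaged 4698 in superior and 4093 in inferior pools, and the second heart field progenitor factor Isl1 807.4 and 1005. Both arrays of pool 1 stood apart in the probe sets for 18S ribosomal RNA, with 3′ signals of 86.4 and 98 against 377.8 to 533 elsewhere. The superior array of pool 6 stood apart in its hybridisation controls, at 1.64 times the median array. No region difference in these measures could be tested below an exact permutation p of 0.1.

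No member gene was called by limma, where 0.16% of all probe sets were, and the smallest adjusted p of the 28 was 0.416, for Tpi1. At an unadjusted p of 0.05, 5 members passed, all higher in superior, where 4.98% of probe sets passed in that direction, 6% in the other and 11% in either. These were Tpi1, Pgam1, Ldha, Bnip3 and Higd1a. All 5 had a mean signal above 1000, where 21.5% of tested probe sets passed as higher. After quantile normalization or cyclic loess, described below, the only member to pass was Slc2a3, which was lower in superior. Over all 57 tested member probe sets 13 passed, among them dimmer ones of Slc2a3, Pfkp and Higd1a that were lower in superior. Without the pool number in the fit, 2 members passed the unadjusted limit (3.52% of all probe sets in either direction) and 0 the adjusted one. The differences were small: 27 of the 28 intervals (95%, from the fit) lay within 1.5-fold in either direction, and all 28 within 2-fold. The median size of a member's difference was 0.13 log2 units, beside 0.12 over all tested probe sets.

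**Figure D1:**
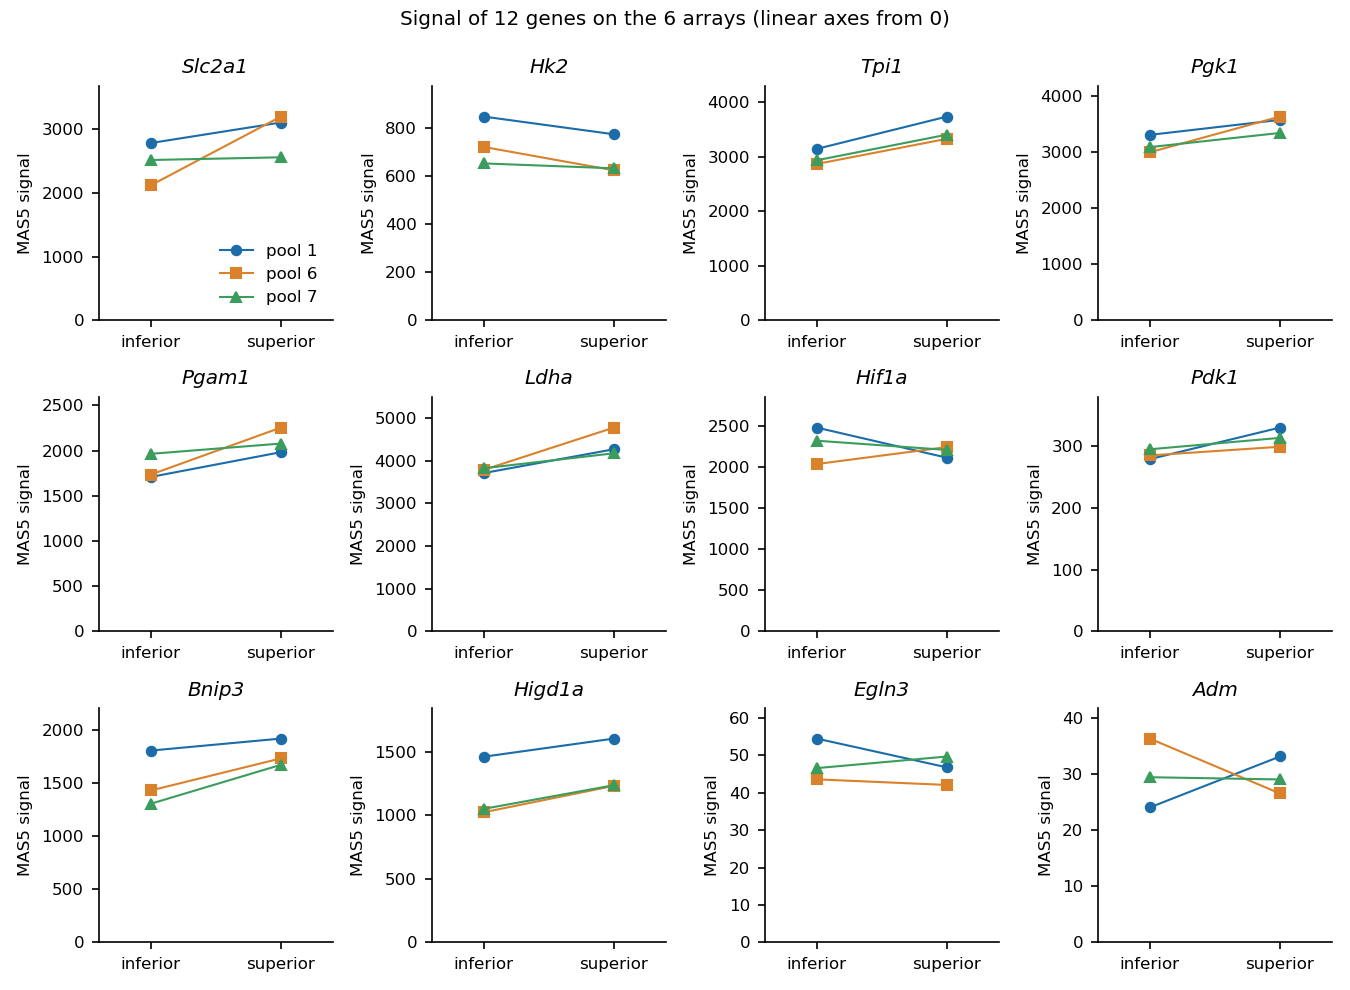
MAS5 signal (linear axes from 0) of 12 member genes in inferior and superior tissue, with a line for each pool. Tpi1, Pgk1, Pgam1, Ldha and Pdk1 have all superior points above all inferior points, while Adm runs from 24.1 to 33.2 in pool 1 and from 36.4 to 26.6 in pool 6.

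Among the glucose transporters, Slc2a1, which encodes the widespread transporter GLUT1, had signals of 3102, 3195 and 2556 in superior pools 1, 6 and 7 and of 2780, 2117 and 2514 in the inferior ones. The superior value was the higher one in each pool, but the regions overlapped, and for this probe set most of the difference lay in pool 6. The log2 difference was 0.26 ± 0.12 (SE, n = 3 pools; adjusted p = 0.474), with 0.16, 0.59 and 0.02 in pools 1, 6 and 7. Its other 2 probe sets gave 0.26 ± 0.09 and 0.25 ± 0.08, with the pools from 0.19 to 0.30. Slc2a3, the high-affinity transporter GLUT3, ran the other way, at -0.08 ± 0.09 (adjusted p = 0.788) for its brighter probe set and -0.34 ± 0.10 (adjusted p = 0.331) for the other one tested. That last probe set, whose suffix marks possible cross-hybridisation, had the smallest adjusted p of all member probe sets.

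The enzymes that commit glucose to the pathway did not lean to a side. Hexokinase 2, encoded by Hk2, phosphorylates glucose on entry and had signals of 772.2, 622.6 and 631.0 in superior pools against 845.7, 719.8 and 651.4 in inferior ones. Superior was lower in each pool (19% of all probe sets), the regions overlapped, and the difference was -0.13 ± 0.08 (adjusted p = 0.621). Hk1, the more uniformly expressed hexokinase, gave -0.09 ± 0.10. The 3 phosphofructokinase genes gave -0.07 ± 0.09 for Pfkl (liver type), 0.12 ± 0.09 for Pfkp (platelet type) and 0.04 ± 0.12 for Pfkm (muscle type). A dimmer Pfkp probe set ran the other way, at -0.43 ± 0.16 (adjusted p = 0.413). All its superior values lay below all inferior ones (4.56% of all probe sets). By the brightest probe sets, 2 of these 5 genes were higher in superior, with a median of -0.07, and 0 had all 3 pools higher.

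Later enzymes of the pathway were higher in superior in 6 of 7 tested genes, by a median of 0.19 log2 units. However, 0 were called, and the sign of Aldoa and Pgk1 turned under quantile normalization. Aldoa, Tpi1, Pgk1, Pgam1 and Ldha had a mean signal from 1000 up, where 82.9% of all tested probe sets were higher (median 0.13). No hexokinase or phosphofructokinase gene was that bright. Whether the pathway step or the brightness accounts for the split was not tested. Tpi1, a triosephosphate isomerase, had signals of 3742, 3334 and 3410 in superior and 3148, 2872 and 2939 in inferior pools. In the deposited signals all superior values lay above all inferior ones, and the pools agreed closely, with 0.25, 0.22 and 0.21. The difference was 0.23 ± 0.09, a 1.17-fold change (adjusted p = 0.416). Its other 2 probe sets gave 0.24 and 0.16. Under quantile normalization its brightest probe set gave 0.06, with 0.14, -0.10 and 0.16 in pools 1, 6 and 7. The regions then overlapped.

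Ldha, the lactate dehydrogenase subunit that favours lactate formation, had signals of 4266, 4773 and 4172 in superior and 3708, 3784 and 3821 in inferior pools. The regions did not overlap, and the difference was 0.22 ± 0.09 (1.17-fold, adjusted p = 0.434). Ldhb, the subunit common in oxidative tissue such as heart muscle, had signals of 1196, 948.6 and 943.8 against 1059, 786.5 and 872.1. Superior was higher within each pool, but pool 1 was brighter than the others in both regions, so the regions overlapped (0.19 ± 0.08, adjusted p = 0.466). All 4 Ldhb probe sets had the same sign, from 0.13 to 0.24, and 2 of them, the brightest included, carry the suffix that marks possible cross-hybridisation.

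Pgam1, a phosphoglycerate mutase, had signals of 1983, 2256 and 2079 in superior and 1709, 1735 and 1965 in inferior pools (0.22 ± 0.09, adjusted p = 0.439). The lowest superior value, in pool 1, was just above the highest inferior one, in pool 7. Pgk1, a phosphoglycerate kinase that makes ATP in this pathway, had signals of 3567, 3626 and 3335 against 3300, 2990 and 3082. Again the regions did not overlap (0.17 ± 0.09, adjusted p = 0.529). Its probe sets disagreed in size, with 0.26 ± 0.09 and 0.04 ± 0.16 for the 2 others, both of a suffix that marks possible cross-hybridisation.

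The aldolases split fructose bisphosphate. Aldoa, the muscle type, gave 0.19 ± 0.09 (adjusted p = 0.508), and all 5 of its probe sets were positive, from 0.12 to 0.19, though all 5 carry the suffix that marks possible cross-hybridisation. Aldoc, the brain type, had signals of 77.2, 67.7 and 60.6 in superior and 124.5, 66.1 and 80.4 in inferior pools. It was lower in superior in pools 1 and 7 only, with a difference of -0.34 ± 0.16 (adjusted p = 0.471). The interval ran from -0.70 to 0.01, and its lower end was the lowest among the members' brightest probe sets. Slc16a3, which encodes the lactate exporter MCT4, gave 0.15 ± 0.12 (adjusted p = 0.696).

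Gapdh, the glyceraldehyde phosphate dehydrogenase of the pathway, was measured by 3 probe sets that serve as array controls, at the 5′ end, middle and 3′ end of the transcript, and was not among the genes tested. At the 3′ end its signals were 4095, 5256 and 4389 in superior pools 1, 6 and 7 and 3715, 3928 and 3966 in inferior ones, and the regions did not overlap. At the 5′ end they were 3150, 5849 and 5204 against 1679, 4612 and 4766. Both pool 1 arrays were far below the others there, and the 3′ over 5′ ratio was 1.30 and 2.21 in pool 1 against 0.832 to 0.899 in the other pools. This ratio, a common measure of RNA or labelling quality, averaged 1.01 in superior and 1.30 in inferior arrays (two-sided exact permutation p = 0.9, where 0.1 is the smallest possible).

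**Figure D2:**
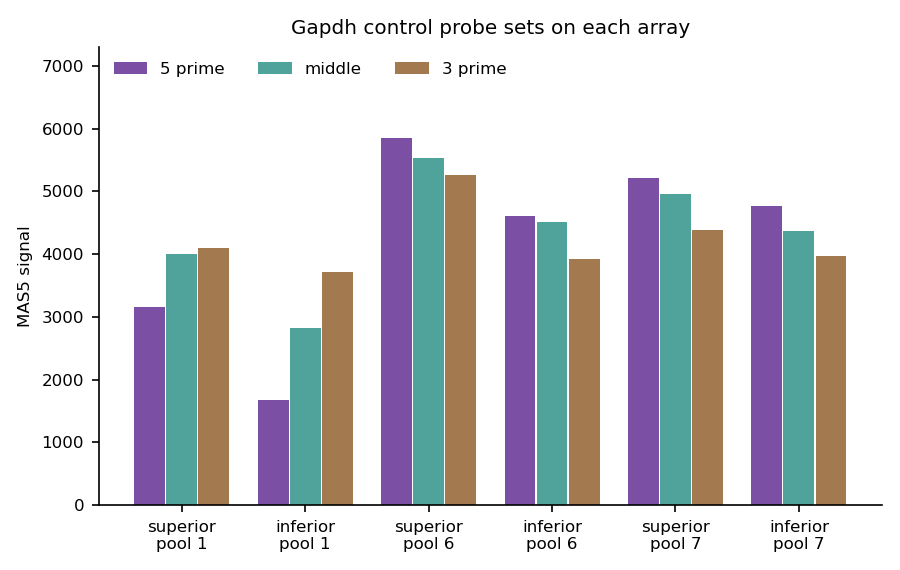
MAS5 signal of the Gapdh control probe sets at the 5′ end, middle and 3′ end on each of the 6 arrays, as bars from 0. The 5′ bars of pool 1, at 3150 and 1679, stand below its 3′ bars, at 4095 and 3715, whereas in pools 6 and 7 the 5′ bar is the taller.

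Some other members' probe sets were also low in pool 1. A dimmer Hk1 probe set had signals of 3.4 and 6.3 in pool 1 and from 43.8 to 72.9 in pools 6 and 7, although the brighter one ranged from 691.1 to 860.7. A dimmer Pfkl probe set had 84.3 and 73 against 151.8 to 170.4. Pfkm, with its single probe set, averaged 122.4 in pool 1, 189.7 in pool 6 and 210.0 in pool 7. By contrast Bnip3, Higd1a, Ldhb and Pfkp were brightest in pool 1. Whether the Gapdh ratio has a part in these pool differences was not tested.

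Hif1a encodes the oxygen-regulated subunit of HIF-1, and its signals were 2117, 2247 and 2212 in superior and 2485, 2040 and 2324 in inferior pools. The superior pools lay inside the inferior range, and the difference was -0.05 ± 0.10 (adjusted p = 0.880), with an interval from -0.28 to 0.17. Its dimmer tested probe sets were also below 0, at -0.11 ± 0.11 (adjusted p = 0.748) and -0.455 ± 0.24 (adjusted p = 0.522). Its activity is controlled mainly at the protein level, which arrays do not measure. The HIF prolyl hydroxylases, Egln1 and Egln3, are oxygen sensors and themselves HIF targets. Egln3 had signals of 46.8, 42.1 and 49.7 in superior and 54.5, 43.6 and 46.6 in inferior pools, overlapping, with a difference of -0.06 ± 0.15 (adjusted p = 0.926) that turned to 0.01 under quantile normalization. Egln1 gave 0.14 ± 0.09 (adjusted p = 0.622) and was higher in superior in all 3 pools by its brighter probe set. Its other probe set gave 0.12 ± 0.14 (adjusted p = 0.801), with 0.10, 0.47 and -0.22 in pools 1, 6 and 7.

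Bnip3 and Higd1a had the largest differences among the tested HIF genes, and both encode mitochondrial proteins. Bnip3, whose product promotes mitophagy, had signals of 1922, 1735 and 1675 in superior and 1809, 1433 and 1308 in inferior pools. Superior was higher within each pool, while pool 1 was bright in both regions and made them overlap. The difference was 0.24 ± 0.09, or 1.18-fold (adjusted p = 0.417). Higd1a, a hypoxia-induced protein of the respiratory chain, had signals of 1604, 1232 and 1237 against 1461, 1024 and 1051. The pattern was the same, at 0.21 ± 0.08 (adjusted p = 0.430), but its 2 other probe sets ran the other way, at -0.08 and -0.37. The dimmest of them had signals of 37.0, 32.9 and 44.5 in superior and 48.3, 48.9 and 52.7 in inferior pools, with all superior values below all inferior ones. Pdk1, a mitochondrial kinase that inhibits pyruvate dehydrogenase and so the conversion of pyruvate to acetyl-CoA, had signals of 330.6, 299.5 and 313.9 against 279.4, 285.4 and 295.4. Its regions did not overlap, yet the difference was small, 0.13 ± 0.09 (adjusted p = 0.647).

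The remaining targets were dimmer and had no common direction. Adm, the vasodilator peptide adrenomedullin, had signals of 33.2, 26.6 and 29.1 in superior and 24.1, 36.4 and 29.5 in inferior pools. The pools ran opposite ways, with 0.42, -0.41 and -0.02, and the mean difference was 0.00 ± 0.20 (adjusted p = 0.997), with a sign that changed with the scaling. Ddit4, an inhibitor of mTOR signalling, gave -0.16 ± 0.14 and Ndrg1, a differentiation- and stress-linked gene, 0.11 ± 0.15. Hilpda, which limits fat breakdown in lipid droplets, gave 0.07 ± 0.13, and Ankrd37, an ankyrin repeat gene, 0.10 ± 0.13. The collagen prolyl hydroxylase genes P4ha1 and P4ha2 gave -0.05 ± 0.11 and 0.00 ± 0.11. Car9, the hypoxia-marker carbonic anhydrase, was too dim to test: its signals were 7.2, 12.5 and 8.4 in superior and 2.8, 5.6 and 12.5 in inferior pools, above background on 3 of 6 arrays.

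**Figure D3:**
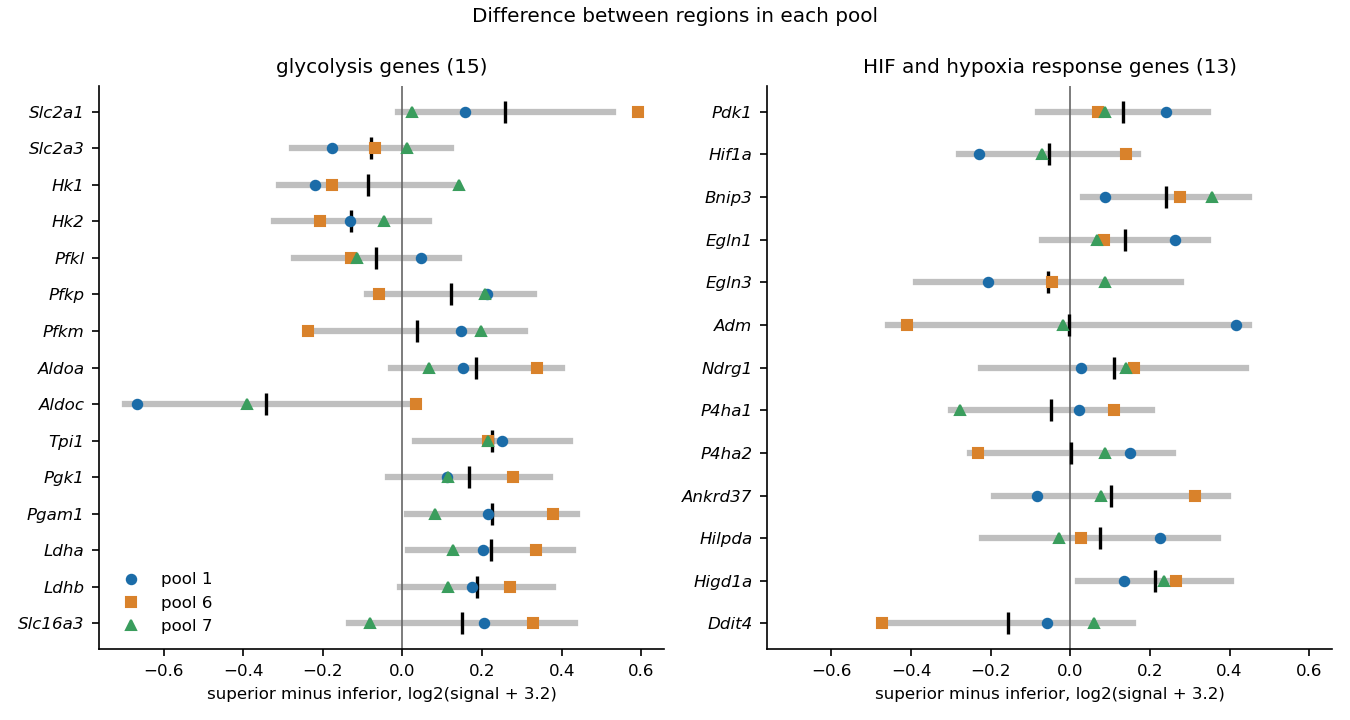
Superior minus inferior difference of log2(signal + 3.2) for the 28 tested members, with a point for each pool, a tick for the mean and a grey bar for the 95% interval of the fit. The 3 points of Tpi1 lie together at 0.21 to 0.25, those of Adm range from -0.41 to 0.42, and 23 of the 28 bars cross 0.

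As a group, 10 of 15 tested glycolysis genes were higher in superior, with a median log2 difference of 0.15, where the median over all tested probe sets was -0.02 and 44.9% were higher. By pool it came to 0.15 (pool 1), 0.22 (pool 6) and 0.08 (pool 7). Leaving out pool 1 gave 0.12 with 9 of 15 higher, and leaving out pool 6 gave 0.11 with 10 of 15. In 7 of the 15 genes superior was higher in all 3 pools (15% of all probe sets), and in 4 all superior values lay above all inferior ones (4.65%). Of the 13 tested HIF genes 8 were higher, with a median of 0.07, which was 0.03 without pool 1 and 0.10 without pool 6. This median rests on the choice of probe set: it was 0.01 over all their tested probe sets (13 of 24 higher) and 0.00 with probe sets averaged by gene (7 of 13 higher). Superior was higher in all 3 pools for 5 of them, and 1, Pdk1, had no overlap.

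These shares moved with the brightness of the probe sets. Of the 616 tested probe sets with a mean signal from 2000 up, 95.5% were higher in superior, with a median of 0.20, and 41.4% had no overlap. From 1000 to 2000 the share was 74.1% and the median 0.08, and from 100 to 300 they were 43.7% and -0.02. The 7 glycolysis genes with a mean signal from 1000 up had a median of 0.22, with 6 of 7 higher, and the 8 dimmer ones a median of -0.02 with 4 higher. Slc2a3 was the bright exception, and among HIF genes Hif1a was likewise bright and below 0. After quantile normalization, which gives every array the same distribution of signals, the glycolysis median was 0.00 with 8 of 15 higher, and 0 genes kept regions without overlap. Under cyclic loess, which evens out trends with brightness, it was 0.07. Ldha went from 0.22 to 0.00 and Pgk1 from 0.17 to -0.02 under quantile normalization, while Pgam1, at 0.12, and Ldhb, at 0.14, were still higher in all 3 pools. With cyclic loess 3 glycolysis genes were higher in all 3 pools, Pgk1, Ldha and Ldhb, and Pgam1 was higher in 2. Under quantile normalization the HIF median did not shrink, at 0.11 with 10 of 13 genes higher. Among these, the dim Egln3 and Adm had turned from below 0 to 0.01 and 0.07. Bnip3 and Higd1a did shrink, from 0.24 to 0.15 and from 0.21 to 0.16. Hif1a was then lower in superior in all 3 pools, at -0.17 ± 0.08 (adjusted p = 0.536).

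**Figure D4:**
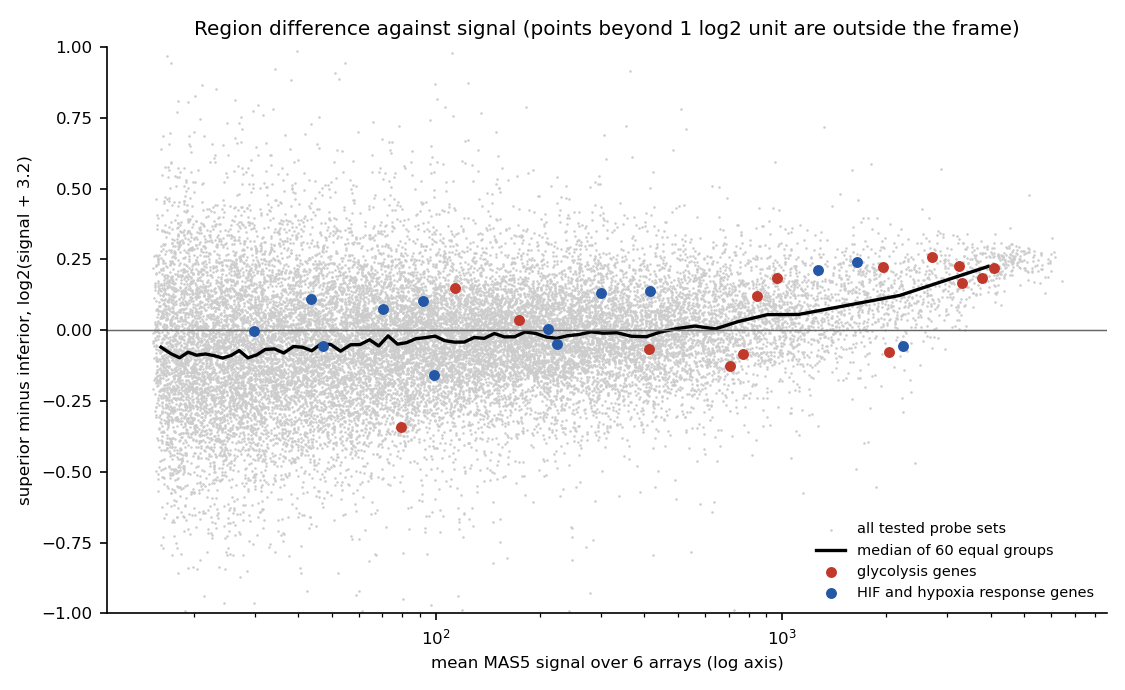
Superior minus inferior difference of log2(signal + 3.2) against the mean signal over 6 arrays (log axis) for all 22518 tested probe sets in grey, with glycolysis genes in red, HIF genes in blue and the running median as a black line. The line rises with brightness, and most bright glycolysis genes lie on it, whereas Slc2a3 and Hif1a lie below 0 near a signal of 2000.

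**Figure D5:**
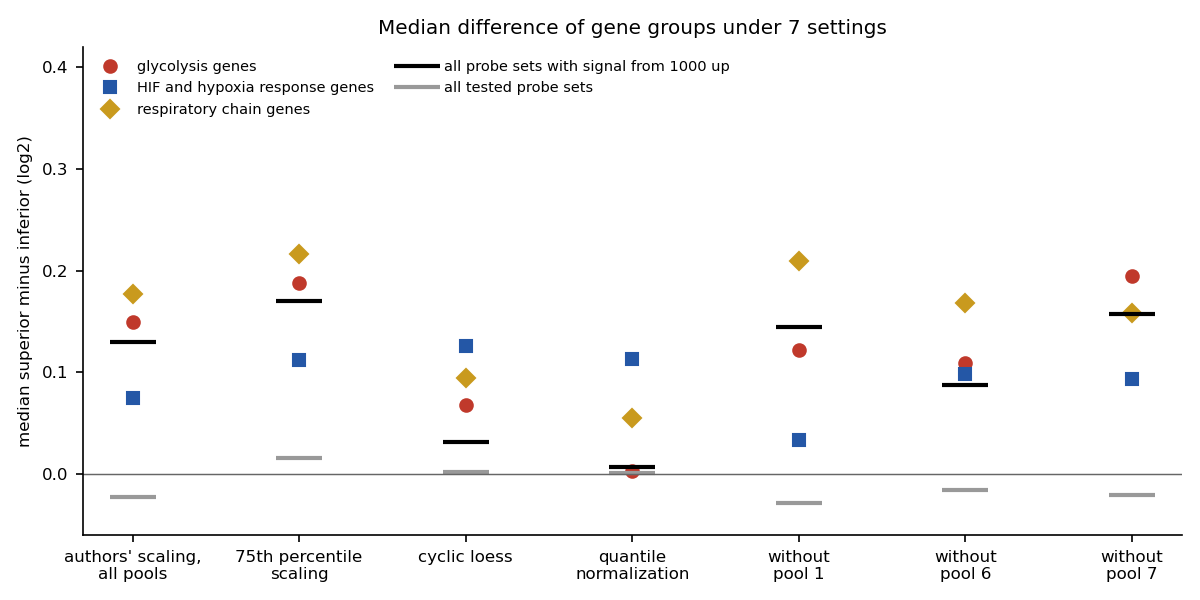
Median superior minus inferior difference of 3 gene groups and of all or bright probe sets under other scalings and without each pool. The glycolysis median and that of probe sets with a signal from 1000 up were 0.15 and 0.13 as deposited, 0.00 and 0.01 after quantile normalization, and 0.12 and 0.14 without pool 1, while the HIF median lies between 0.03 and 0.13 in the settings drawn.

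A list for comparison held genes of the mitochondrial respiratory chain and citric acid cycle, and also the regulator genes Ppargc1a and Ppargc1b. Its tested genes were higher in superior in 28 of 33 cases, by a median of 0.18. By limma 0 were called, and 10 were higher at an unadjusted p of 0.05. Those 10 are 30.3% of the list, beside 21.5% of all tested probe sets with a signal from 1000 up and 32.1% of those from 2000 up. The median was 0.05 after quantile normalization. Cox5b, a cytochrome oxidase subunit, averaged 3835 ± 441.9 (SD, n = 3) in superior and 3028 ± 316.1 in inferior pools (0.34 ± 0.11, adjusted p = 0.379). Cox8a, another subunit, gave 0.29 ± 0.09 (adjusted p = 0.336), Cox6a1 0.28 ± 0.09 and Ndufa4, a cytochrome oxidase subunit despite its name, 0.31 ± 0.10.

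Of 33 other glycolysis symbols 24 were tested, and 0 were called by limma. At an unadjusted p of 0.05, 2 were higher and 1 lower, and 9 of the 24 were higher in superior (median -0.06). Slc16a1, the lactate and pyruvate transporter MCT1, averaged 909.2 ± 237.1 in superior and 759.7 ± 176.0 in inferior pools (0.25 ± 0.08, adjusted p = 0.371). Eno3, the muscle enolase, averaged 1037 ± 107.5 and 1204 ± 141.7 (-0.21 ± 0.08, adjusted p = 0.419). Pdhb, a subunit of pyruvate dehydrogenase, gave 0.23 ± 0.10, and Pygl, a glycogen phosphorylase, -0.25 ± 0.12.

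Of 40 other HIF pathway symbols 33 were tested, 16 higher and 17 lower, with a median of 0.00 and 0 called. At an unadjusted p of 0.05 there was 1 in each direction. Vegfa, the angiogenic growth factor and a classical HIF target, had signals of 149.0, 130.7 and 116.9 in superior and 194.2, 151.7 and 186.1 in inferior pools. All superior values lay below all inferior ones (4.56% of all probe sets), with a difference of -0.41 ± 0.12 (adjusted p = 0.319), opposite in sign to Bnip3 and Ldha. Ppp1r3c, which promotes glycogen synthesis, gave 0.37 ± 0.10 (adjusted p = 0.298). Mif, a cytokine, gave 0.22 ± 0.10 and Fam162a, a mitochondrial HIF target, 0.21 ± 0.09.

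Of the marker lists, the epicardial one had the most genes called. All 9 tested epicardial markers, genes of the mesothelial layer that spreads over the heart, were higher in superior (median 1.07), and 5 were called, for example Tbx18 at 1.86 ± 0.12 (adjusted p = 0.0026). Their summed signal was 1206 to 2084 in superior and 701.3 to 993.2 in inferior pools. Heart muscle markers were higher in superior in 13 of 15 cases, with sums of 49000 to 56830 and 42640 to 44480 and 0 called by limma. That share, 86.7%, compares with 82.9% of all tested probe sets with a signal from 1000 up and 95.5% of those from 2000 up. At an unadjusted p of 0.05, 8 of the 15 were higher (53.3%), beside 21.5% and 32.1% of those probe sets, and 1 was lower. The smallest adjusted p of these markers in the limma fit was 0.062. Nkx2-5, a cardiac transcription factor, was an exception at -0.31 ± 0.09 (adjusted p = 0.313). Of 6 second heart field markers 5 were lower in superior, with sums of 3982 to 4457 and 5102 to 5504, and Sema3c, a guidance factor of the outflow tract, was called (-0.71 ± 0.10, adjusted p = 0.0484). Neural crest markers were lower in 5 of 6 cases with 0 called by limma, with sums of 577.0 to 692.4 and 704.8 to 884.9, and Foxd3, a defining one, was above background on 0 arrays.

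The summed signals of the other marker lists overlapped between the regions. For 7 tested red blood cell markers, which include embryonic globins, they were 14040 to 23120 in superior and 12650 to 16100 in inferior pools, and the superior array of pool 6 had the highest. Endothelial markers summed to 1825 to 2434 and 1804 to 2217, and macrophage markers to 116.1 to 315.0 and 124.4 to 303.0. Cushion markers summed to 10830 to 14740 and 9987 to 13290, and pharyngeal epithelial markers to 1104 to 1306 and 929.2 to 1414. Early stress genes, which respond to tissue handling, summed to 1883 to 1920 and 1875 to 2110. Fewer cells of a type and less RNA per cell cannot be told apart in pooled tissue, and the part of these cells in the members' differences was not tested.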

How the data were processed

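The authors deposited linear intensity signals. The submitters' processing notes name MAS5, and each array was scaled to a common level (trimmed mean 100.0), from total RNA of 6 pools. No version is given in the sources used here. Of 45101 probe sets, 64 are controls. Names come from the platform annotation and promoter sequences from RefSeq. Signals were taken as log2(signal + 3.2), the 25th percentile being 3.2, and the brighter 50% of probe sets by mean log2 value (a signal of about 15.1 up), 22518 in all, entered the test. Regions were compared with limma 3.58.1 in R 4.3.3 (lmFit, eBayes with trend and robust variance), with pool number as a block and Benjamini-Hochberg adjustment. This was checked on simulated data whose planted changes were larger than any tested member's difference. The check therefore does not cover changes as small as those of the members. Same-numbered arrays deviated together (r = 0.793, 0.428 and 0.507 across probe sets for pools 1, 6 and 7), all above the limit of 0.1. Unmatched arrays of pools 6 and 7 also passed it, at r = 0.18 and 0.199. Pool 1 arrays with those of another number gave -0.54 to -0.457. The limit therefore does not by itself single out same-numbered arrays. Arrays of one number were treated as a pair, as the rule for this gene set asked. The paired fit leaves 2 residual degrees of freedom a probe set. Arrays hold no counts, and their number limits the precision. Members and lists were chosen with earlier results of these data known. Values on every array are given for members called, without overlap, among the 8 smallest p-values, and for 8 listed genes whatever their p (Hif1a, Slc2a1, Hk2, Ldha, Adm, Egln3, Bnip3, Gapdh). In other pathway lists the genes with the 4 smallest p-values are named. Alternatives were the fit without the block, other offsets, filters, normalizations and probe set choices, eBayes without trend, and leaving out each pool.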

Additional observations from a re-analysis of the deposited data

How the results depend on the processing

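No member gene was called under any of the 12 other settings run, where the smallest adjusted p was 0.0907, without pool 6. Over the 14 tested genes described array by array, 155 of 165 values kept their sign. The reversals were Pgk1 at -0.0158, Egln3 at 0.0068 and Adm at 0.0716 under quantile normalization, Egln3 at 0.0042 and Adm at 0.0654 under cyclic loess, and Adm at 0.0319 under 75th percentile scaling. Leaving out a pool gave a range of -0.151 to 0.0339 for Hif1a, -0.1268 to 0.0201 for Egln3 and -0.214 to 0.1986 for Adm. The glycolysis median of 0.15 moved to 0.0026 under quantile normalization and 0.0675 under cyclic loess, and ranged from 0.1093 to 0.195 without a pool. The respiratory chain median of 0.18 moved to 0.0548, 0.0942 and, under 75th percentile scaling, 0.2167, and ranged from 0.1588 to 0.2092. That of other glycolysis genes moved from -0.06 to 0.0779 in the top 25% of probe sets. The HIF median of 0.07 was 0.064 with offset 16, 0.0885 without the filter, 0.0673 in the top 25%, 0.1129 under quantile normalization, 0.1255 under cyclic loess and 0.1123 under 75th percentile scaling. It was 0.007 over all tested probe sets, 0.0026 with probe sets averaged by gene and 0.0386 without probe sets of the _x_at or _s_at suffix (chosen after seeing the data), and ranged from 0.0339 to 0.0981 without a pool.

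The count of 36 called probe sets was 0 with no replicate block, that is without pairing, 0 without trend and robust variance, 22 with offset 1, 1 without the filter and 2 in the top 25%. It was 38 under 75th percentile scaling, split into 26 higher and 12 lower. It was 9 without pool 1, 231 without pool 6 and 116 without pool 7. The cause of these moves was not tested. Leaving the block out changed no member's call. With 3 pools a region and a median standard error of 0.10 for a member's difference, the number of arrays limits the precision.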
